A study of Homo sapiens with 8 samples.

Results

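Antisense RNAs named after the gene on the opposite strand were described together with that gene in transcription-factory RNA of human fibroblasts. The pairs were chosen by name and by count: the antisense gene's symbol ends in -AS1, the symbol before the suffix is also listed as a gene, and both genes reached at least 20 counts in each of the 8 libraries. Of 28265 genes listed, 1093 carried the suffix and 1078 of them had their sense gene listed, which gave 259 pairs, or 518 genes, above the floor. The lowest count was set by the antisense gene in 238 of the 259 pairs. Just inside the floor, with 20 counts in their lowest library, lay AFF1-AS1, DIAPH1-AS1 and DTD1-AS1, and just outside, with 19, lay BCDIN3D-AS1, COL4A2-AS1 and GNAS-AS1. The 819 pairs outside held 463 in which only the antisense gene was below the floor, 12 in which only the sense gene was and 344 in which both were. A pair whose antisense RNA dropped under the floor in any one condition is therefore not described here.

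Antisense RNAs are transcripts, mostly non-coding, that start within, behind or next to a protein-coding gene and run the other way. Some start back to back with the sense gene from a bidirectional promoter, others lie inside the sense gene and across its introns, and others come in from beyond its end. They are known for acting on the sense gene in cis in some cases, such as CDKN2B-AS1 (ANRIL) at the INK4 locus, and many are short-lived in the nucleus because the nuclear exosome degrades them.

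The cells were IMR90, a line of human lung fibroblasts, and all libraries came from this one line. Control cells were young, proliferating cells. Inflachromene (ICM), a small molecule that binds HMGB1 and HMGB2 and induces senescence in these cells, was given for 3 days or for 6 days. The last group is labelled MetaICM, and the sources used here do not explain the name further. Each group had 2 libraries, and since the labels do not say whether these came from separate cultures, all p-values measure only the spread between these libraries. The study's methods describe nascent RNA attached to transcription factories, while the labels describe poly(A)-selected total RNA. The deposited values are read pairs on exons per gene, counted without regard to strand.

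Library totals ran from 12095123 to 23166405 counts, with a median of 18642269. All 10 fibroblast markers looked for were found, with summed levels of 22237 to 22540 CPM (counts scaled to a common library total) in control, 12521 to 13905 CPM after 3 days, 10693 to 10986 CPM after 6 days and 19425 to 20336 CPM in MetaICM. Summed markers of other cell types were low: 4 epithelial markers gave 0.552 to 7.88 CPM, 3 endothelial markers 1.43 to 4.94 CPM and 3 leukocyte markers, of which CD3E was at 0 in every library, 4.39 to 21.1 CPM. The leukocyte sum ran from 4.39 to 6.01 CPM in control, from 16.9 to 21.1 at 3 days, from 18.0 to 20.5 at 6 days and from 13.0 to 13.2 in MetaICM, and its part in the results was not tested. As in any bulk sample, fewer cells of a type and less RNA per cell cannot be told apart.

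The pairs fell into 6 arrangements. In 79 pairs the antisense gene lay within the span of the sense gene, and in 43 of these its exons lay wholly within sense introns. In 76 pairs the 2 genes started within 1000 bases of each other on opposite strands, here called a shared promoter. In 63 pairs the antisense gene overlapped the far end of the sense gene, in 25 it overlapped the sense start from farther away, in 7 the sense gene lay inside the antisense gene, and 9 pairs did not overlap. Some antisense exon bases lay in sense introns in 196 of the 259 pairs, and 132 pairs shared exon bases. Because strand was not used in counting, reads of unspliced sense RNA that fall on antisense exons inside sense introns cannot be told apart from antisense reads, and read pairs on exons of both genes were counted for neither.

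The shared promoters are the places where the 2 genes of a pair can be shown on one stretch of DNA. The windows below run from 250 bases before the sense start to 50 bases into the sense gene, read 5′ to 3′ on the sense strand from the primary assembly of hg19 (GRCh37), with the bases from the antisense start to the sense start in capitals. They are given for pairs whose genes parted (SPAG5, UBL7) and for a pair whose genes moved together (SLC2A1). The windows are chr17:26925994-26926293 on the minus strand for SPAG5, chr15:74753480-74753779 on the minus strand for UBL7 and chr1:43424490-43424789 on the minus strand for SLC2A1. In each, the antisense gene starts at the first capital and runs leftward out of the window, and the sense gene starts at the last capital and runs to the right.
SPAG5: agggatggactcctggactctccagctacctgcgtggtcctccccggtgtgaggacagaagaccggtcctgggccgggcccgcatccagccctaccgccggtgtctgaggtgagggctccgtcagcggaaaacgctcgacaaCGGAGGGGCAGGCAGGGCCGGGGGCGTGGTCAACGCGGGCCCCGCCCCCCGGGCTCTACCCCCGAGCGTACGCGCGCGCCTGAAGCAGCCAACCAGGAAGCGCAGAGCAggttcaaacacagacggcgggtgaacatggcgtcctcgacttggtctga
UBL7: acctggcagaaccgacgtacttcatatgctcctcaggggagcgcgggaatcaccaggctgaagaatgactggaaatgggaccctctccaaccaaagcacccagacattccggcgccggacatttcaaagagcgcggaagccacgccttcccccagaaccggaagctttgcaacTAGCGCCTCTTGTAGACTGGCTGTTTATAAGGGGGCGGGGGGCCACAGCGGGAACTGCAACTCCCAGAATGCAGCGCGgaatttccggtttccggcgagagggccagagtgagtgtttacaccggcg
SLC2A1: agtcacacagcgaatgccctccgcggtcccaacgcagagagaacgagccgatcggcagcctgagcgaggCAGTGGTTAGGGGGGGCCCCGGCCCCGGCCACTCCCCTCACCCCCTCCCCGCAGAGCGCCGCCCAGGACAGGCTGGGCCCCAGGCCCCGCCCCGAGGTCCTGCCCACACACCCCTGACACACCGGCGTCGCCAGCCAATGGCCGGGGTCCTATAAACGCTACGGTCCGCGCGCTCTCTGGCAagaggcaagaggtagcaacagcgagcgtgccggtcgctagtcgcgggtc

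The starts were 77 bases apart for UBL7, 108 for SPAG5 and 181 for SLC2A1. Over the 76 sense genes with a shared promoter, the median window held 26 CG dinucleotides and was 65% G or C, against 16 and 59.33% over 27769 windows of all genes and 31 and 69.33% for the sense genes with an antisense gene inside them. The letters CCAAT, searched on both strands, occurred in 24 of the 76 windows (31.58%) and in 35.65% of all windows, and TATAAA in 7 (9.211%) and in 11.51%. The cell-cycle promoter words TTTGAA occurred in 9 (11.84%) and in 14.22%, and TTTCCCGC, TTTGGCGC, TTTCGCGC or TTTGCCGC in 2 (2.632%) and in 3.446%. CCAAT was present in the window of SLC2A1 and not in those of SPAG5 and UBL7, while TTTGAA was present in the latter 2 windows and not in the former. With 3 windows chosen for how the genes moved, this is a description of these letters only.

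Antisense genes were shorter and less abundant than their sense partners. The median antisense gene had 4 exons and 2169 exon bases (264 to 8048), and the median sense gene 12 exons and 4521 bases. Per kilobase of exon, the median antisense level was 2.93 CPM in control, 3.03 after 3 days, 2.61 after 6 days and 2.39 in MetaICM, and the median sense level 9.52 CPM in control, 10.004 after 3 days, 9.72 after 6 days and 9.28 in MetaICM. The antisense gene lay below its own sense gene in 228 pairs in control, 221 after 3 days, 223 after 6 days and 228 in MetaICM. The median antisense to sense percentage per kilobase was 28.4% in control, 28.3% after 3 days, 24.4% after 6 days and 22.6% in MetaICM. In control the lowest antisense level was that of IQCH-AS1, 0.403 CPM per kilobase, and the highest that of TPT1-AS1, 26.1.

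A gene was called when its adjusted p was under 0.05 (edgeR quasi-likelihood test, Benjamini-Hochberg over all genes tested) and its log2 fold change (log2FC) was above 0.6 in size, and "rose" and "fell" are used for called genes only. Comparisons with control share the 2 control libraries, so they are given side by side and not as independent evidence. After 3 days of ICM, 24 antisense genes rose (9.27% of 259) and 22 fell (8.49%), and 26 sense genes rose (10.04%) and 30 fell (11.6%), where 8.85% of all genes tested rose and 13.2% fell. After 6 days, 27 antisense genes rose (10.4%) and 60 fell (23.2%), and 31 sense genes rose (11.97%) and 43 fell (16.6%), where 13.3% of all genes rose and 17.2% fell. From 3 to 6 days 24 antisense genes fell (9.27%) and 2 rose (0.772%), and 9 sense genes fell (3.47%) and 5 rose (1.93%), where 4.54% of all genes fell and 3.53% rose.

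In MetaICM, 60 antisense genes were lower than in control (23.2%) and 5 higher (1.93%), and 30 sense genes were lower (11.6%) and 17 higher (6.56%), where 8.99% of all genes fell and 7.41% rose. Antisense and sense genes together, higher or lower, 112 of the 518 members were called. Fewer were called without either MetaICM library, most of all without MetaICM replicate 2. Such a fit keeps 1 MetaICM library, so lost power and dependence on that library cannot be told apart. Against ICM 6 days, 50 antisense genes were lower in MetaICM (19.3%) and 21 higher (8.11%), and 34 sense genes were lower (13.1%) and 28 higher (10.8%), where 12.0% of all genes were lower and 15.7% higher. The median log2FC of the 259 antisense genes was 0.01 after 3 days, -0.17 after 6 days and -0.36 in MetaICM against control, and that of the sense genes 0.02, -0.01 and -0.08, with all genes at 0.01, 0.00 and 0.00.

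**Figure D1:**
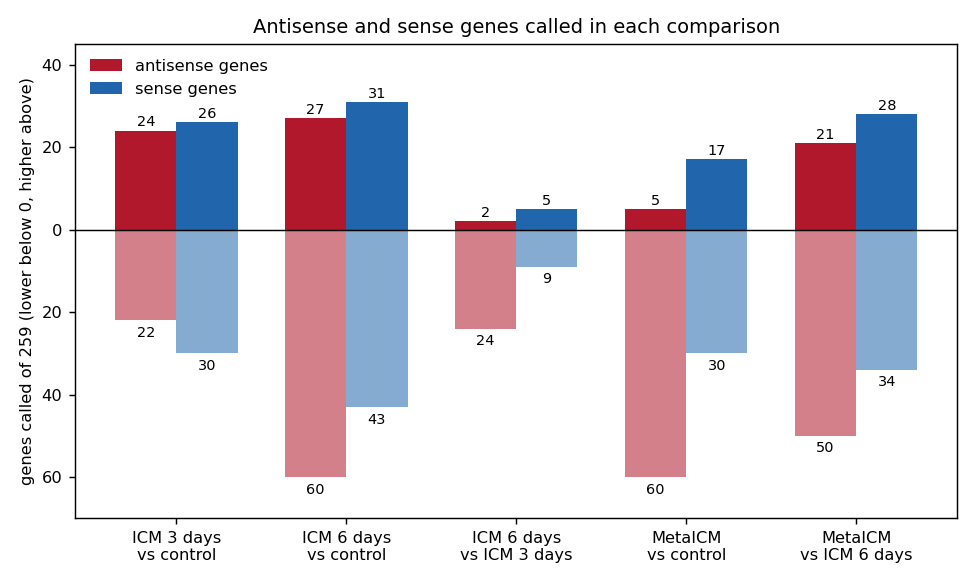
Number of antisense (red) and sense (blue) genes among the 259 pairs that were called higher (dark bars, above 0) or lower (pale bars, below 0) in each of the 5 comparisons by the edgeR quasi-likelihood test. Antisense genes called lower outnumber those called higher after 6 days (60 and 27) and in MetaICM against control (60 and 5).

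Both genes of a pair were called in the same direction in 17 pairs after 3 days (6.56%), against 4.95% of 2745 opposite-strand pairs. These 2745 pairs, used as background throughout, include the 259 members. The corresponding numbers were 32 after 6 days (12.4%, against 8.16%), 7 from 3 to 6 days (2.70%, against 1.02%), 18 in MetaICM against control (6.95%, against 2.95%) and 28 in MetaICM against ICM 6 days (10.8%, against 7.69%). Pairs called in opposite directions were few. There were 4 after 3 days (1.54%, against 0.947%), 5 after 6 days (1.93%, against 2.15%) and 3 in MetaICM against ICM 6 days (1.16%, against 0.801%). None passed in MetaICM against control (background 0.510%) or from 3 to 6 days (0.0729%) by edgeR, with 7 and 3 pairs of opposite sign at an unadjusted p under 0.05 for both genes and 0 and 0 by DESeq2. In most called pairs 1 gene alone passed. After 6 days only the antisense gene was called in 50 pairs and only the sense gene in 37. In MetaICM against control these numbers were 47 and 29. Of all genes tested, 13.3% rose and 17.2% fell after 6 days, and 7.41% and 8.99% in MetaICM against control. The share of pairs with 1 called gene was not taken over the 2745 opposite-strand pairs, so these counts are not read as a trait of the members.

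The ratio of antisense to sense counts within each library does not depend on the scaling between libraries, and its change was tested with limma over the same 2745 opposite-strand pairs (adjusted p under 0.05 and a log2 change above 0.6 in size). It changed in 44 member pairs after 3 days (17.0%, against 25.2% of the opposite-strand pairs), with 26 up and 18 down. After 6 days it changed in 87 (33.6%, against 37.8%), with 29 up and 58 down. In MetaICM it changed in 56 against control (21.6%, against 20.6%), with 9 up and 47 down, and in 40 against ICM 6 days (15.4%, against 23.2%), with 10 up and 30 down. From 3 to 6 days 9 ratios fell (3.47%, against 6.99%) and none rose by limma, where 10 were up and 41 down at an unadjusted p under 0.05. Without ICM 6 days replicate 1 the number after 6 days was 54, and without MetaICM replicate 2 the number in MetaICM against control was 15.

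The calls are given here by the arrangement of the pair, and no test between arrangements was made. Among the 79 pairs with the antisense gene inside the sense gene, 32 antisense genes fell and 2 rose after 6 days, while 13 sense genes fell and 9 rose, and the ratio was down in 33 pairs and up in 1. Of all genes tested 17.2% fell and 13.3% rose, and the ratio changed in 37.8% of the 2745 opposite-strand pairs. In MetaICM against control 26 of these antisense genes fell and 2 rose, and the ratio was down in 25, where 8.99% of all genes fell and 7.41% rose and 20.6% of ratios changed. Among the 76 pairs with a shared promoter, 15 antisense genes rose and 6 fell after 6 days, and the ratio was up in 16 and down in 9. In MetaICM against control 2 of these antisense genes were higher and 8 lower, and the ratio was up in 5 and down in 8. In MetaICM against ICM 6 days 17 of the shared-promoter antisense genes were lower and 5 higher, where 12.0% of all genes were lower and 15.7% higher. In the 63 pairs with overlap at the sense end, 18 antisense genes fell and 5 rose after 6 days with the ratio down in 11 and up in 4, and in MetaICM against control 19 fell and 1 rose with the ratio down in 9 and up in 1.

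A lower median log2FC of the inner than of the outer gene was also seen outside the members. In 298 other opposite-strand pairs with one gene inside the other, the median log2FC after 6 days was -0.43 for the inner and -0.08 for the outer gene, with the ratio down in 89 and up in 33, and the members' medians were -0.60 and -0.03. In MetaICM against control the medians were -0.44 and -0.08 in these other pairs and -0.60 and -0.08 in the members. These pairs share the 8 libraries and the strand-less counting, and 253 outer genes carried the 298 pairs.

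The correlation between the changes of antisense and sense gene differed with the arrangement and the comparison. After 6 days Pearson's r of the 2 log2FC values was 0.72 over the 79 pairs with the antisense gene inside, 0.69 over the 63 with overlap at the sense end and 0.28 over the 76 with a shared promoter, and 0.16 over the 25 with overlap at the sense start, 0.20 over the 7 with the sense gene inside and -0.49 over the 9 without overlap. In the same order it was 0.62, 0.53, 0.29, 0.67, 0.58 and 0.23 in MetaICM against control. Over the 298 other pairs with one gene inside the other it was 0.40 after 6 days and 0.13 in MetaICM against control. Over 1035 other opposite-strand pairs with starts within 1000 bases it was 0.13 and 0.28. Over 983 other overlapping pairs with starts further apart it was 0.37 and 0.27. The points of one comparison share 4 libraries, and in the overlapping arrangements also the stretch of DNA on which reads of both strands can fall, so these are descriptions across pairs and not tests.

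**Figure D2:**
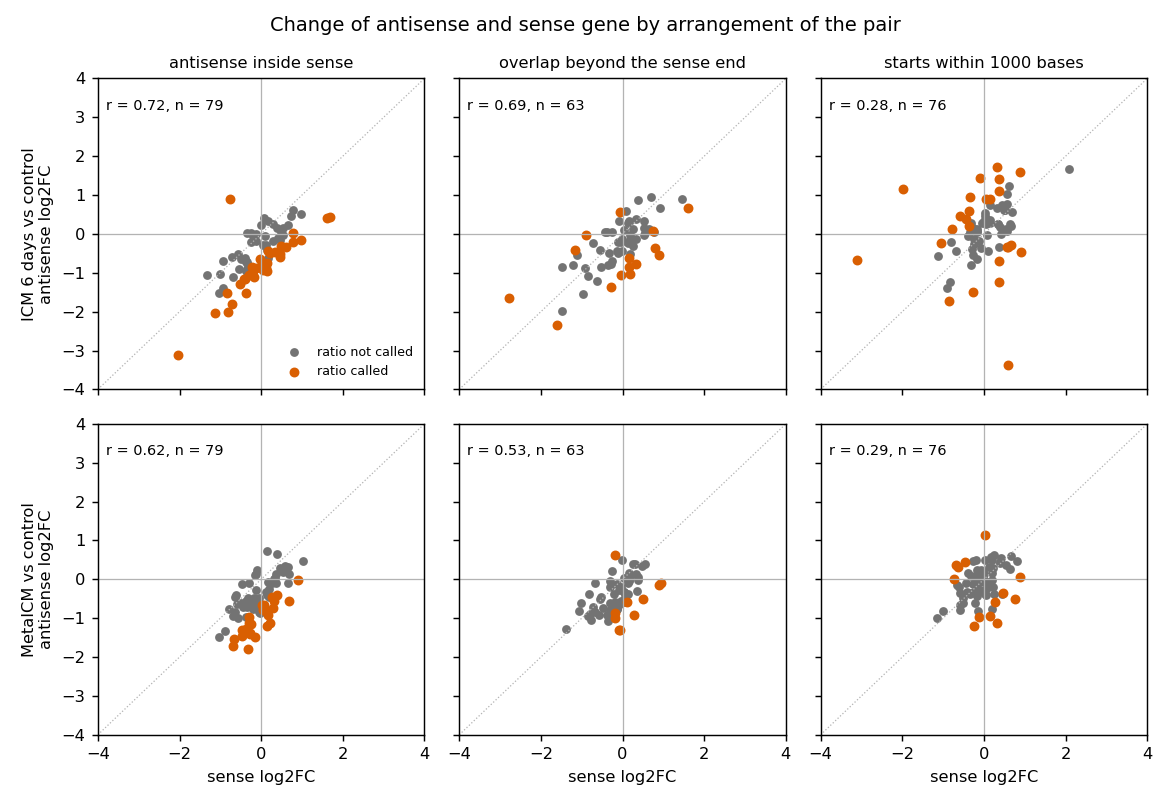
log2FC of the antisense gene (vertical axis) against log2FC of its sense gene (horizontal axis), 1 point per pair, for ICM 6 days (upper row) and MetaICM (lower row) against control in 3 arrangements; orange points are pairs whose ratio was called by limma and the dotted line marks equal change. Pairs with the antisense gene inside lie along the line and mostly below it (r = 0.72 after 6 days), and pairs with a shared promoter scatter more widely (r = 0.28).

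Several sense partners act in cell division and DNA repair, and in the pairs named first the 2 genes parted. SPAG5, which encodes a protein of the mitotic spindle, fell far more than its antisense RNA. Its level was 118 and 103 CPM in control, 14.4 and 13.5 at 3 days, 13.3 and 12.4 at 6 days and 71.6 and 75.8 in MetaICM. SPAG5-AS1 was at 2.38 and 2.57 CPM in control, 1.24 and 1.69 at 3 days, 1.67 and 1.44 at 6 days and 1.63 and 1.22 in MetaICM. For SPAG5 the ICM libraries were the lowest and MetaICM lay below control, with no overlap, and for SPAG5-AS1 the 2 control libraries were the highest. The log2FC of SPAG5 was -3.11 (SE 0.13, adjusted p = 9.63e-08) after 6 days, while that of SPAG5-AS1, -0.67 (SE 0.30, adjusted p = 0.0960), was not called (edgeR). The ratio therefore rose by 2.22 after 3 days and by 2.43 after 6 days on the log2 scale (limma, adjusted p = 6.12e-05 and 1.71e-05). In MetaICM against ICM 6 days its log2 change was -2.65.

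CCDC18 and CCDC18-AS1 do not overlap, and they parted, the sense gene falling and the antisense gene rising after 6 days. CCDC18 was at 45.3 and 54.2 CPM in control, 18.2 and 22.7 at 3 days, 19.5 and 20.3 at 6 days and 32.1 and 31.2 in MetaICM. CCDC18-AS1 was at 22.4 and 26.8 CPM in control, 40.6 and 44.5 at 3 days, 46.1 and 45.9 at 6 days and 31.0 and 31.6 in MetaICM. Every ICM library was below control for the sense gene and above control for the antisense gene, and the MetaICM libraries lay between for both genes. The log2FC after 6 days was -1.33 (SE 0.14, adjusted p = 4.08e-05) for CCDC18 and 0.90 (SE 0.14, adjusted p = 4.73e-04) for CCDC18-AS1 (edgeR). The ratio rose by 2.08 after 3 days, by 2.23 after 6 days and by 1.00 in MetaICM against control, each called by limma.

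TONSL takes part in the repair of stalled replication forks and holds its antisense gene inside its own span. TONSL was at 47.4 and 37.3 CPM in control, 24.5 and 25.4 at 3 days, 24.6 and 25.8 at 6 days and 40.2 and 39.4 in MetaICM. TONSL-AS1 was at 1.61 and 2.32 CPM in control, 1.79 and 2.83 at 3 days, 4.30 and 2.98 at 6 days and 2.68 and 1.91 in MetaICM. The sense gene was lower in all ICM libraries than in control and MetaICM, and the antisense gene was highest after 6 days. After 6 days TONSL had a log2FC of -0.76 (SE 0.14, adjusted p = 0.00209) and TONSL-AS1 of 0.91 (SE 0.32, adjusted p = 0.0395) by edgeR. Neither call held without control replicate 1, and that of TONSL-AS1 was also lost without ICM 6 days replicate 1 and with DESeq2.

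CDKN2B encodes the CDK4 and CDK6 inhibitor p15, and its antisense RNA, ANRIL, runs around it with the sense gene inside its span. CDKN2B was at 20.5 and 14.9 CPM in control, 31.7 and 29.9 at 3 days, 28.4 and 26.1 at 6 days and 15.2 and 13.8 in MetaICM. CDKN2B-AS1 was at 5.59 and 7.13 CPM in control, 2.58 and 3.71 at 3 days, 2.74 and 3.19 at 6 days and 3.12 and 2.22 in MetaICM. The sense gene was highest in the 4 ICM libraries and the antisense gene highest in the 2 control libraries, in neither case with overlap. CDKN2B rose after 3 days, log2FC 0.79 (SE 0.17, adjusted p = 0.00516), and after 6 days, log2FC 0.61 (SE 0.17, adjusted p = 0.0141), and CDKN2B-AS1 fell, log2FC -1.03 (SE 0.28, adjusted p = 0.0152) and -1.09 (SE 0.24, adjusted p = 0.00456) (edgeR). The log2 change of the ratio was -1.84 after 3 days and -1.73 after 6 days, both called by limma. The calls of CDKN2B ended without control replicate 2, with a log2FC of 0.56 after 3 days and 0.41 after 6 days, and at 6 days also without ICM 6 days replicate 1 (0.56), and the 3-day call of CDKN2B-AS1 without ICM 3 days replicate 1 (-0.78). In MetaICM CDKN2B-AS1 stayed lower than in control, log2FC -1.25 (SE 0.25, adjusted p = 0.00638), a call lost without MetaICM replicate 2, and CDKN2B had a log2FC of -0.30, which was not called.

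**Figure D3:**
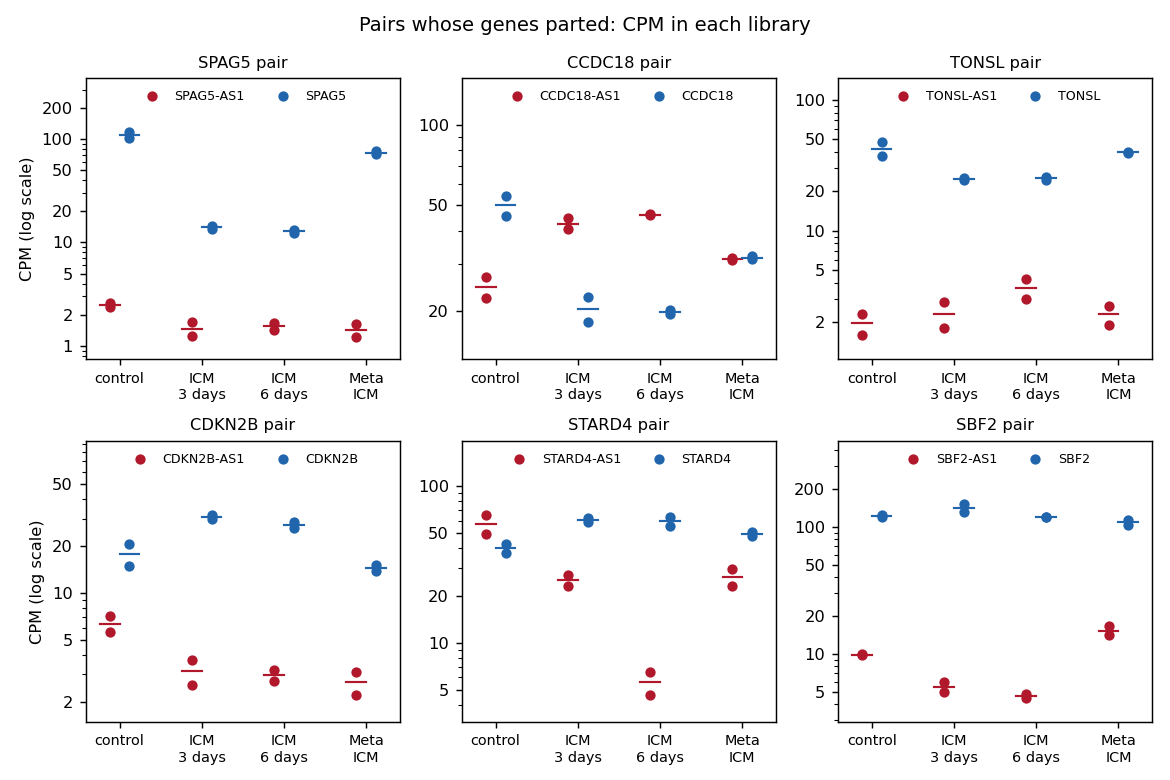
Levels in CPM (log scale) of 6 pairs whose genes parted, with each antisense gene in red and its sense gene in blue; points are the 8 libraries, 2 per group, and short lines are group means. CCDC18-AS1 rises from 22.4 and 26.8 CPM in control to 46.1 and 45.9 CPM after 6 days while CCDC18 falls from 45.3 and 54.2 CPM to 19.5 and 20.3 CPM.

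Further pairs included those of GABPB1, MCM3AP and the telomere gene POT1. GABPB1-AS1, opposite the gene of a GA-binding protein subunit, rose after 3 and 6 days, log2FC 0.65 and 0.75, while GABPB1 had -0.12 and -0.45, and the 3-day call was lost without either ICM 3 days library. MCM3AP-AS1 fell from 20.1 and 24.4 CPM in control to 11.7 and 10.2 CPM after 6 days, log2FC -1.03 (SE 0.17, adjusted p = 7.26e-04), while MCM3AP, which encodes an mRNA export factor, had a log2FC of 0.18 (edgeR). POT1 encodes a shelterin protein that binds telomeric single strands, and POT1-AS1 starts at its promoter. POT1-AS1 was at 6.07 and 8.20 CPM in control, 13.9 and 17.6 at 3 days, 21.0 and 21.7 at 6 days and 7.73 and 7.69 in MetaICM. POT1 was at 24.5 and 27.9 CPM in control, 25.7 and 28.1 at 3 days, 51.2 and 45.8 at 6 days and 23.7 and 23.8 in MetaICM. The antisense gene was already higher in both 3-day libraries, whereas the sense gene was higher only in the 6-day libraries, and in MetaICM neither gene was called against control. The log2FC of POT1-AS1 was 1.14 (SE 0.22, adjusted p = 0.00195) after 3 days and 1.59 (SE 0.18, adjusted p = 7.20e-05) after 6 days, and that of POT1 0.03 (SE 0.15, adjusted p = 0.898) and 0.89 (SE 0.13, adjusted p = 4.91e-04) (edgeR). A group of division, replication and repair genes used to order this description held 5 member pairs. SPAG5, CCDC18, TONSL and POT1 were not in it. In this group 2 antisense genes rose and 1 fell and 1 sense gene fell after 6 days, where 13.3% of all genes rose and 17.2% fell.

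In 24 pairs both genes fell after 6 days, and the 5 with the largest fall of both had partners in chromatin architecture, actin filaments or contraction. HMGA2 encodes an AT-hook chromatin protein, and HMGA2-AS1 lies inside it. HMGA2 was at 146 and 137 CPM in control, 26.4 and 33.0 at 3 days, 32.7 and 36.9 at 6 days and 118 and 115 in MetaICM. HMGA2-AS1 was at 185 and 143 CPM in control, 21.5 and 36.6 at 3 days, 20.4 and 17.5 at 6 days and 82.4 and 67.4 in MetaICM. Both genes were lower in every ICM library than in any control or MetaICM library, and MetaICM lay below control. After 6 days the log2FC was -2.03 (SE 0.12, adjusted p = 6.76e-07) for HMGA2 and -3.12 (SE 0.16, adjusted p = 2.20e-07) for HMGA2-AS1 (edgeR), and the ratio fell, a log2 change of -1.08 (SE 0.17, adjusted p = 5.52e-05) by limma.

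ACTA2 encodes smooth muscle actin and had the larger fall of its pair. ACTA2 was at 487 and 420.1 CPM in control, 75.4 and 75.0 at 3 days, 58.8 and 72.2 at 6 days and 291 and 314 in MetaICM. ACTA2-AS1 was at 30.4 and 46.5 CPM in control, 9.66 and 16.0 at 3 days, 11.4 and 13.0 at 6 days and 16.9 and 23.5 in MetaICM. Control was highest and ICM lowest for both genes, with MetaICM between. After 6 days ACTA2 had a log2FC of -2.79 (SE 0.14, adjusted p = 2.19e-07) and ACTA2-AS1 of -1.65 (SE 0.20, adjusted p = 1.20e-04) (edgeR), and the ratio rose by 1.17 on the log2 scale (limma). In MetaICM ACTA2-AS1 was called lower than control, log2FC -0.92, a call lost without control replicate 2 or MetaICM replicate 1, and ACTA2 at -0.59 was not.

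Both genes also fell in 3 pairs of the actin cytoskeleton and of contraction. AFAP1, an actin filament binding protein, and AFAP1-AS1 fell after 6 days, log2FC -1.48 and -1.99. MRVI1, a target of cGMP kinase in smooth muscle, and MRVI1-AS1 fell, log2FC -1.59 and -2.33, and so did DIAPH1, a formin that nucleates actin, and DIAPH1-AS1, -1.14 and -2.03 (edgeR). DIAPH1-AS1 is one of the members at the floor, with 20 counts in its lowest library. In MetaICM against ICM 6 days AFAP1 and MRVI1 were higher again together with their antisense genes, log2FC 1.10 and 1.07, and 1.44 and 1.53, while DIAPH1 and DIAPH1-AS1, at 0.46 and 0.31, were not called.

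MYOCD encodes myocardin, a coactivator of serum response factor, and its pair turned between the time points. MYOCD was at 42.4 and 57.5 CPM in control, 87.1 and 103 at 3 days, 21.5 and 18.6 at 6 days and 26.9 and 26.8 in MetaICM. MYOCD-AS1, inside it, was at 3.33 and 4.72 CPM in control, 4.83 and 8.77 at 3 days, 1.40 and 2.45 at 6 days and 1.73 and 1.43 in MetaICM. The 3-day libraries were the highest and the 6-day libraries the lowest for the sense gene, without overlap. MYOCD rose after 3 days, log2FC 0.92 (SE 0.16, adjusted p = 0.00121), and fell after 6, log2FC -1.32 (SE 0.17, adjusted p = 1.54e-04), and from 3 to 6 days both genes fell, by 2.25 for MYOCD and by 1.79 for MYOCD-AS1 on the log2 scale (edgeR). The 6-day call of MYOCD-AS1 against control ended without ICM 6 days replicate 1. TTN encodes titin, the giant protein of the muscle sarcomere, and TTN-AS1 and TTN had log2FC values of 0.34 and -0.10 after 6 days that were not called, and in MetaICM TTN was below control, -1.01 (SE 0.12, adjusted p = 4.43e-04).

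Among other sense partners, LOXL1 encodes an elastin cross-linking enzyme and was at 42.2 and 39.4 CPM in control, 18.2 and 15.4 at 3 days, 18.6 and 17.8 at 6 days and 62.7 and 66.0 in MetaICM. LOXL1-AS1 was at 7.20 and 8.29 CPM in control, 5.15 and 5.40 at 3 days, 6.02 and 5.05 at 6 days and 9.71 and 6.86 in MetaICM. LOXL1 was below control in the ICM libraries and above it in the MetaICM libraries, and the antisense libraries overlapped between control and MetaICM. The log2FC of LOXL1 was -1.17 (SE 0.13, adjusted p = 6.02e-05) after 6 days and 0.65 (SE 0.11, adjusted p = 0.00345) in MetaICM, the latter lost without MetaICM replicate 2, and LOXL1-AS1 was called in neither, at -0.48 and 0.10 (edgeR). GAS6 encodes the ligand of the TAM receptor kinases and moved likewise, log2FC -0.96 after 6 days and 0.93 in MetaICM, while GAS6-AS1 fell after 6 days, -1.53, and was at -0.11 in MetaICM, not called. The group ordered under matrix, cytoskeleton and signalling held 6 member pairs, those of ACTA2, LOXL1, TTN, SPRY4, SEMA3F and STARD4. AFAP1, MRVI1 and DIAPH1 were not in it. In this group 2 antisense genes, STARD4-AS1 among them, and 2 sense genes fell after 6 days, where 17.2% of all genes fell. Of its ratios 2 were up and 1 down, where 37.8% of opposite-strand ratios changed.

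Ratios of 3 further pairs fell in at least 1 comparison. CLIP1-AS1, inside the gene of a microtubule plus-end protein, was at 4.40 and 5.80 CPM in control, 5.20 and 5.26 at 3 days, 3.22 and 3.46 at 6 days and 2.13 and 2.26 in MetaICM. CLIP1 was at 196 and 179.5 CPM in control, 272 and 260.3 at 3 days, 284 and 237 at 6 days and 208 and 208 in MetaICM. MetaICM was lowest for the antisense gene and within the range of the other groups for the sense gene. In MetaICM CLIP1-AS1 fell, log2FC -1.20 (SE 0.25, adjusted p = 0.00739), with CLIP1 at 0.14 (edgeR). MAGI1-AS1, inside the gene of a junction scaffold, fell in MetaICM by 1.79 on the log2 scale, with MAGI1 at -0.33. The ratio change of this pair, -1.45, was not called without control replicate 2 or MetaICM replicate 2. MAGI1-AS1 held 24 and 22 counts in the MetaICM libraries, close to the floor. BASP1 rose after 6 days, log2FC 0.92, while BASP1-AS1 had -0.48 and was not called, and the ratio change of -1.41 was lost without control replicate 2 or ICM 6 days replicate 1.

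In 8 pairs both genes rose after 6 days, and transporter genes were the first of these. SLC2A1 encodes the glucose transporter GLUT1 and was at 333 and 254 CPM in control, 824 and 802 at 3 days, 1232 and 1251 at 6 days and 529.6 and 499 in MetaICM. SLC2A1-AS1, which starts 181 bases away, was at 2.38 and 2.24 CPM in control, 4.65 and 5.53 at 3 days, 7.41 and 7.34 at 6 days and 4.11 and 2.35 in MetaICM. Both genes were higher in each ICM library than in control and were highest after 6 days, and 1 of the 2 MetaICM libraries of the antisense gene lay within the control range. The log2FC after 6 days was 2.08 (SE 0.14, adjusted p = 1.78e-06) for SLC2A1 and 1.66 (SE 0.23, adjusted p = 2.43e-04) for SLC2A1-AS1 (edgeR), and the ratio change of -0.43 was not called by limma.

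SLC7A11 encodes the cystine-glutamate antiporter xCT and was at 845 and 794 CPM in control, 1610.2 and 1745 at 3 days, 2241 and 2263 at 6 days and 528 and 499 in MetaICM. SLC7A11-AS1, at its far end, was at 61.9 and 41.2 CPM in control, 89.5 and 109 at 3 days, 98.9 and 95.1 at 6 days and 30.7 and 27.3 in MetaICM. For both genes the ICM libraries were the highest and the MetaICM libraries the lowest, with no overlap. The log2FC after 6 days was 1.45 (SE 0.12, adjusted p = 5.44e-06) and 0.90 (SE 0.17, adjusted p = 0.00167), and in MetaICM against control -0.68 (SE 0.12, adjusted p = 0.00331) and -0.84 (SE 0.18, adjusted p = 0.00752) (edgeR). Neither MetaICM call held without MetaICM replicate 2, and that of the antisense gene was also lost without control replicate 1.

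RDH10, a retinol dehydrogenase gene, followed a later course. RDH10 was at 178 and 182 CPM in control, 205 and 193 at 3 days, 559 and 529 at 6 days and 178 and 168 in MetaICM. RDH10-AS1 was at 25.2 and 33.6 CPM in control, 23.5 and 31.9 at 3 days, 46.7 and 46.9 at 6 days and 11.8 and 11.8 in MetaICM. The 6-day libraries were the highest for both genes, and MetaICM was lowest for the antisense gene and at the control level for the sense gene. After 6 days the log2FC was 1.59 (SE 0.11, adjusted p = 1.74e-06) for RDH10 and 0.68 (SE 0.15, adjusted p = 0.00520) for RDH10-AS1, the latter lost without control replicate 1, and in MetaICM -0.06, not called, and -1.31 (SE 0.16, adjusted p = 6.37e-04) (edgeR). MAMDC2 and MAMDC2-AS1 also rose between 3 and 6 days, log2FC 2.17 and 1.13, the antisense call being lost without ICM 6 days replicate 2.

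STARD4 encodes a sterol transfer protein, and its antisense RNA had the largest fall of all the pairs after 6 days. STARD4-AS1 was at 49.7 and 65.5 CPM in control, 22.9 and 27.2 at 3 days, 6.50 and 4.63 at 6 days and 22.9 and 29.6 in MetaICM. STARD4 was at 37.5 and 42.6 CPM in control, 62.7 and 59.0 at 3 days, 63.9 and 55.8 at 6 days and 51.1 and 48.2 in MetaICM. The antisense libraries were ordered without overlap from control through the 3-day and MetaICM libraries, which lay together, to 6 days, and the sense libraries were lowest in control. The log2FC of STARD4-AS1 was -1.21 (SE 0.17, adjusted p = 1.98e-04) after 3 days, -3.37 (SE 0.20, adjusted p = 6.93e-07) after 6 days and -1.13 (SE 0.17, adjusted p = 0.00151) in MetaICM (edgeR). STARD4 was called after 3 days at 0.60 (SE 0.14, adjusted p = 0.00680), which lay at the threshold and was lost with DESeq2 size factors (0.59), without control replicate 1 or without ICM 3 days replicate 1, and at 6 days its 0.58 was not called. The ratio change after 6 days was -3.95 (SE 0.18, adjusted p = 8.16e-12) by limma, and from 3 to 6 days -2.15 (SE 0.18, adjusted p = 1.70e-06).

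**Figure D4:**
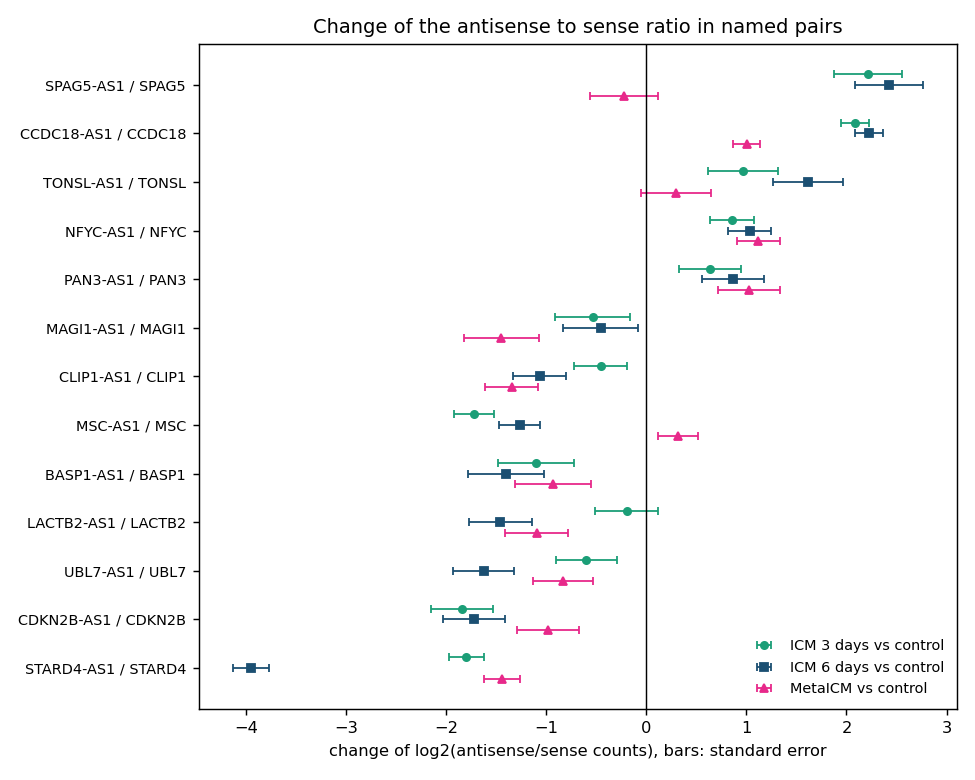
Change of log2(antisense/sense counts) against control (horizontal axis) for 13 pairs named for their ratio in the comparisons with control, after 3 days (circles), after 6 days (squares) and in MetaICM (triangles), with bars for the standard error from the limma fit. SPAG5 and CCDC18 lie to the right after 3 and 6 days and STARD4 farthest to the left after 6 days, and the MetaICM points of SPAG5 and STARD4 lie nearer to 0 than their 6-day points.

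SBF2-AS1, at the far end of the myotubularin-family gene SBF2, moved in opposite directions in ICM and MetaICM. SBF2-AS1 was at 9.70 and 9.86 CPM in control, 4.97 and 6.00 at 3 days, 4.51 and 4.84 at 6 days and 14.0 and 16.4 in MetaICM. SBF2 was at 119.9 and 125 CPM in control, 131 and 153 at 3 days, 119 and 119 at 6 days and 112 and 104 in MetaICM. The 4 ICM libraries were below and the 2 MetaICM libraries above control for the antisense gene, without overlap, and the sense gene stayed between 104 and 153 CPM in all libraries. The log2FC of SBF2-AS1 was -1.07 (SE 0.19, adjusted p = 0.00136) after 6 days and 0.64 (SE 0.16, adjusted p = 0.0161) in MetaICM, and in MetaICM against ICM 6 days 1.70 (SE 0.15, adjusted p = 4.67e-09) (edgeR). The rise in MetaICM against control was not called without either MetaICM library. SBF2 was called in none of these 3 comparisons, at -0.04, -0.18 and -0.14.

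Further pairs, among them partners in metabolism and protein turnover, follow. UBL7-AS1 was at 2.74 and 2.73 CPM in control and 1.24 and 1.06 CPM after 6 days. Its log2FC was -1.25 (SE 0.31, adjusted p = 0.00847) by edgeR, not called without ICM 6 days replicate 2 or by DESeq2. Its 6-day libraries held 23 and 20 counts, the latter at the floor. UBL7 was at 0.38, not called. LACTB2 rose after 6 days, log2FC 0.90, and LACTB2-AS1 at -0.54 was not called, while their ratio fell, a log2 change of -1.46 (SE 0.32, adjusted p = 0.00113) by limma. THUMPD3-AS1 rose after 3 and 6 days, 0.87 (lost without ICM 3 days replicate 1) and 0.88, and THUMPD3, which encodes a tRNA methyltransferase, was at 0.32 and 0.37, not called. FAM13A and FAM13A-AS1 rose together after 6 days, 0.92 and 0.68, and were lower in MetaICM than after 6 days, -1.23 and -1.29, with the 6-day call of the antisense gene lost without control replicate 1 or ICM 6 days replicate 2. The pairs of PSMA3 (a proteasome subunit) and NNT (the mitochondrial transhydrogenase) had no called gene, with antisense log2FC of 0.01 and -0.14 and sense log2FC of 0.55 and -0.25 after 6 days. The group ordered under metabolism and protein turnover held 14 member pairs, those of PSMA3, NNT, THUMPD3, UBA6, USP genes and SLC transporter genes. Its SLC genes included SLC2A1 and SLC7A11, and UBL7, LACTB2 and FAM13A were not in it. After 6 days 3 of its antisense genes rose and 3 fell and 2 sense genes rose and 1 fell, against the same 13.3% and 17.2% of all genes.

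**Figure D5:**
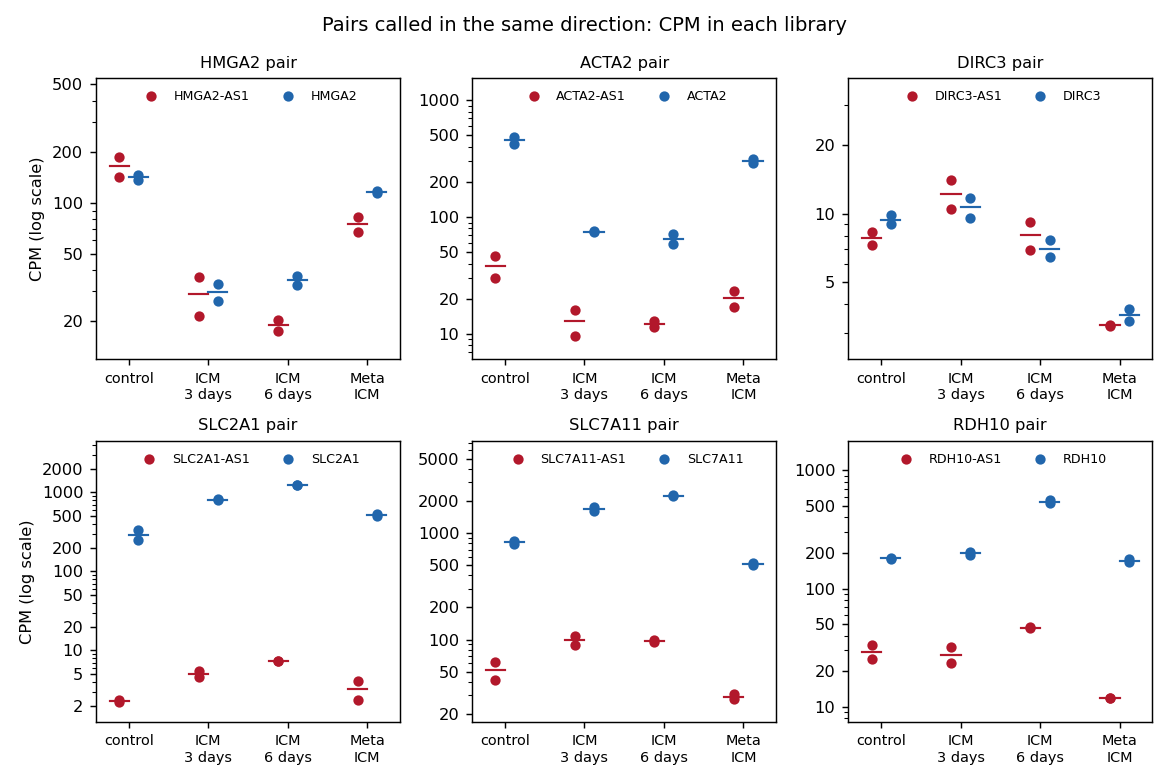
Levels in CPM (log scale) of 6 pairs that were called in the same direction in at least 1 comparison, with each antisense gene in red and its sense gene in blue; points are the 8 libraries, 2 per group, and short lines are group means. HMGA2 and ACTA2 fall with their antisense genes under ICM, SLC2A1 and SLC7A11 rise with theirs, and DIRC3 and DIRC3-AS1 are lowest in MetaICM, at 3.22 to 3.81 CPM.

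Transcription factor partners included pairs with only 1 gene called and pairs with both genes called in the same direction. MSC encodes musculin, a basic helix-loop-helix factor, and was at 16.1 and 12.1 CPM in control, 48.9 and 45.9 at 3 days, 38.1 and 31.4 at 6 days and 11.8 and 11.7 in MetaICM. MSC-AS1 was at 35.6 and 43.1 CPM in control, 34.9 and 46.1 at 3 days, 40.9 and 39.6 at 6 days and 42.6 and 39.4 in MetaICM. The sense gene was highest in the ICM libraries, while the antisense libraries of all groups overlapped. MSC rose after 3 days, log2FC 1.74 (SE 0.17, adjusted p = 9.64e-06), and 6 days, 1.29 (SE 0.17, adjusted p = 2.06e-04), with MSC-AS1 at 0.04 and 0.03 (edgeR). NFYC-AS1 was the reverse case, with NFYC encoding a subunit of the CCAAT-binding factor NF-Y.

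NFYC-AS1 was at 2.74 and 2.57 CPM in control, 7.04 and 5.80 at 3 days, 7.15 and 7.12 at 6 days and 5.60 and 6.26 in MetaICM. NFYC was at 16.5 and 15.2 CPM in control, 20.7 and 21.0 at 3 days, 21.9 and 19.4 at 6 days and 15.3 and 16.9 in MetaICM. All ICM and MetaICM libraries were above control for the antisense gene. For the sense gene all ICM libraries were above control, and the MetaICM libraries overlapped with control. The log2FC of NFYC-AS1 was 1.42 (SE 0.22, adjusted p = 6.10e-04) after 6 days and 1.15 (SE 0.23, adjusted p = 0.00553) in MetaICM, the latter not called without MetaICM replicate 2, and NFYC at 0.38 and 0.02 was not called (edgeR). TBX2 and TBX2-AS1 were the only pair with both genes called above control in MetaICM by edgeR, log2FC 0.67 and 0.61. The antisense call was lost by DESeq2, without control replicate 1 and without either MetaICM library, and that of TBX2 without control replicate 2.

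CREB3L2, a membrane-bound bZIP factor gene, and CREB3L2-AS1 were lower in MetaICM, log2FC -1.04 (SE 0.15, adjusted p = 0.00145) and -1.50 (SE 0.25, adjusted p = 0.00299), and CREB3L2-AS1 fell from 3 to 6 days, -1.58 (SE 0.25, adjusted p = 2.01e-04) (edgeR). IRF1, an interferon-response factor gene, and IRF1-AS1 fell from 3 to 6 days, -0.87 and -0.89, with the antisense call lost without ICM 3 days replicate 2 or either 6-day library. MZF1 and MZF1-AS1 rose after 6 days, 0.83 and 0.73, the latter lost without either 6-day library. ZEB1-AS1, opposite the gene of an epithelial-mesenchymal transition factor, rose after 3 days, 0.71 (SE 0.17, adjusted p = 0.00901) (edgeR), lost without control replicate 2 or ICM 3 days replicate 2, with ZEB1 at 0.50, not called. A group of transcription factors used to order this description held 17 member pairs, those of ZEB1, TBX5 and ZNF and ZBTB genes. It did not include MSC, NFYC, TBX2, CREB3L2, IRF1 or MZF1. In this group 2 antisense genes rose and 1 fell and 3 sense genes rose after 6 days (13.3% of all genes rose and 17.2% fell). In MetaICM against ICM 6 days 3 of its antisense genes and 2 of its sense genes were lower (12.0% of all genes).

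Remaining named pairs were called mainly in MetaICM. DIRC3 is itself a non-coding RNA gene, at 8.98 and 9.86 CPM in control, 9.61 and 11.7 at 3 days, 7.63 and 6.43 at 6 days and 3.81 and 3.39 in MetaICM. DIRC3-AS1 was at 8.33 and 7.29 CPM in control, 10.5 and 14.0 at 3 days, 9.19 and 6.96 at 6 days and 3.22 and 3.26 in MetaICM. Both genes were lowest in MetaICM, below every other library. Their log2FC in MetaICM against control was -1.39 (SE 0.20, adjusted p = 0.00133) and -1.28 (SE 0.21, adjusted p = 0.00234) (edgeR). LURAP1L and LURAP1L-AS1 fell likewise, -1.20 and -1.56, the antisense call being lost without MetaICM replicate 2. PCBP1-AS1, next to the gene of a poly(C) binding protein, fell in MetaICM, -0.98 (SE 0.23, adjusted p = 0.0120) by edgeR, with PCBP1 at -0.11, and its call did not hold without either MetaICM library. PAN3, a deadenylase subunit gene, fell in MetaICM, -0.69, a call lost without control replicate 2 or either MetaICM library, with PAN3-AS1 at 0.37, not called. EPB41L4A had a log2FC of 0.67 in MetaICM that was lost without control replicate 1 or either MetaICM library, and EPB41L4A-AS1 was called in no comparison, with 0.31 in MetaICM. SLFNL1 and SLFNL1-AS1 fell from 3 to 6 days, -0.80 and -0.94, with the sense call lost without ICM 3 days replicate 2 or either 6-day library.

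The genes that clear unstable antisense RNA were examined beside the pairs. Of 23 genes of the nuclear exosome and its adaptors, 2 rose and 3 fell after 3 days, where 8.85% of all genes rose and 13.2% fell, and 4 rose and 3 fell after 6 days, where 13.3% rose and 17.2% fell (edgeR), and their median log2FC was 0.00 and -0.07. EXOSC6, a ring subunit, fell, log2FC -1.39 after 3 days and -1.16 after 6 days, and EXOSC8 (-1.06 and -0.67) and EXOSC9 (-0.65 and -0.62) fell with it, while EXOSC4, another subunit of the ring, rose, 0.98 and 0.94. PABPN1, a nuclear poly(A) binding protein gene, rose after 3 days, 0.62, and EXOSC1, MPHOSPH6 and NCBP2 rose after 6 days, 0.68, 1.03 and 0.72. NCBP2 is also the sense gene of a member pair, with NCBP2-AS1 inside it. None of the 23 was called in MetaICM against control or from 3 to 6 days by edgeR or DESeq2, with 7 and 9 at an unadjusted p under 0.05. In MetaICM against ICM 6 days EXOSC5 (0.88) and EXOSC6 (0.70) were higher and ZFC3H1 (-0.61) lower, and the median was 0.02. Their part in the change of the antisense genes was not tested.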

How the data were processed

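RNA of transcription factories from 8 IMR90 libraries in 4 groups was analysed. Per the labels and the file headers, the authors aligned reads to hg19 (GRCh37) with STAR 2.6.0c and counted primary, properly paired reads on refGene exons with featureCounts 1.6.3, without strand. The deposited values are raw counts per gene. The labels describe poly(A)-selected total RNA, and the study's methods the factory RNA itself. Intronic counts were not used here. CPM were computed from TMM-scaled library sizes (factors 0.956 to 1.03), and levels between genes were divided by exon length.

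Genes were tested with the quasi-likelihood test of edgeR 4.0.16 (TMM, filterByExpr with a count minimum of 10, Benjamini-Hochberg) on the 4 libraries of each comparison, over 15692 to 16036 genes, among which all 518 members. The ratio log2((antisense + 0.5)/(sense + 0.5)) was tested with limma 3.58.1, with a trend on the count and all 8 libraries, over 2745 opposite-strand pairs. These were the 259 members at any distance and 2486 other pairs with overlapping spans or starts within 10000 bases. All had at least 20 counts in every library. One gene spread over more than 3000000 bases, in no member pair, was left out of the pairs, a choice made after seeing the data. The earlier fit with its pairs is an alternative. Members, gene lists and tests were chosen with earlier results of these data known. Named pairs, 46 in all, were those called in opposite directions, those with the largest ratio changes or largest joint changes (5 per direction for 6 days against control, 3 elsewhere), and 14 of 25 antisense RNAs listed from general knowledge. Of these, 2 pairs and some promoter windows are not reported here. ZBTB20-AS1, RASSF8, IQCH-AS1 and TPT1-AS1 and the genes beside the floor were named after their values were seen.

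Marker lists of fibroblasts, epithelium, endothelium and leukocytes, the nuclear exosome list and 4 groups of sense partners were described by counts, sums or medians only. Alternatives were DESeq2 1.42.0, other scalings, filters, pseudocounts, thresholds, floors, fits and a replicate block, and each library left out in turn. Scripts were tested on simulated data. R 4.3.3, Python 3.11.15, numpy 2.4.6, pandas 2.3.3 and matplotlib 3.10.9 were used. Chromosome ends and intron borders of the deposited coordinates were checked on the reference: 94.43% of introns ran from GT to AG. Motifs were searched as plain letters.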

Additional observations from a re-analysis of the deposited data

Results flagged for a closer look

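Several members were called in opposite directions against control in different conditions, which is why they are listed. The log2FC between those conditions is given from the direct edgeR comparison as a description: the genes were picked on the same libraries for moving in opposite directions, so this comparison had to differ in that direction and tests nothing further.

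MYOCD rose after 3 days and fell after 6 days of ICM, and its log2FC from 3 to 6 days was -2.2454. Between ICM 6 days and MetaICM, 5 antisense genes turned: FAM13A-AS1 (log2FC -1.2885), RDH10-AS1 (-1.9847), SLC7A11-AS1 (-1.7429) and ZBTB20-AS1 (-1.2336) were above control after 6 days and below it in MetaICM, and SBF2-AS1 (1.7045) was below and then above. Of the sense genes, SLC7A11 (-2.1318) and RASSF8 (-1.3064) were above control after 6 days and below it in MetaICM, and GAS6 (1.8908) and LOXL1 (1.8248) the reverse. SLC7A11 is the only one of these whose antisense gene turned in the same way. The SBF2-AS1 to SBF2 ratio was the only one called in opposite directions against control, with a log2 change of 1.8375 between MetaICM and ICM 6 days by limma. The MetaICM calls against control of FAM13A-AS1 and SBF2-AS1 were lost without either MetaICM library, and those of LOXL1, SLC7A11 and SLC7A11-AS1 without MetaICM replicate 2.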

How the results depend on the processing

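No called value changed sign under any alternative run, and 110 of the 135 recomputed counts of called members, same-direction pairs and changed ratios, left-out libraries aside, stayed within 1.5 times. At an adjusted p under 0.01, 9 same-direction pairs and 28 changed ratios passed after 3 days, 54 ratios after 6 days, 25 members, 4 same-direction pairs and 3 ratios from 3 to 6 days, 71 members, 11 same-direction pairs and 17 ratios in MetaICM against control, and 21 ratios in MetaICM against ICM 6 days. With a floor of 50 counts, which leaves fewer pairs, the counts were 58 members and 10 same-direction pairs after 3 days, 79, 17 and 47 ratios after 6 days, 18 and 3 from 3 to 6 days, 55, 7 and 27 ratios in MetaICM against control, and 73 and 15 in MetaICM against ICM 6 days. DESeq2 gave 4 same-direction pairs from 3 to 6 days and 11 in MetaICM against control, and the cause was not tested.

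Leaving out each library in turn gave, for members called, same-direction pairs and changed ratios, 74 to 121, 11 to 21 and 31 to 51 after 3 days, and 121 to 170, 22 to 34 and 54 to 90 after 6 days. It gave 31 to 74, 5 to 12 and 1 to 20 from 3 to 6 days, 44 to 160, 3 to 27 and 15 to 63 in MetaICM against control, and 116 to 148, 22 to 35 and 21 to 50 in MetaICM against ICM 6 days. Counts moved by over 1.5 times without ICM 3 days replicate 1 (11 same-direction pairs after 3 days, 74 members and 12 same-direction pairs from 3 to 6 days), ICM 6 days replicate 1 (54 ratios after 6 days, 3 from 3 to 6 days, 25 in MetaICM against ICM 6 days) and MetaICM replicate 2 (44 members, 3 same-direction pairs and 15 ratios against control, 21 ratios against ICM 6 days). They did so too without MetaICM replicate 1 (74 members and 22 ratios against control), control replicate 2 (22 ratios in MetaICM against control), and, for the ratios from 3 to 6 days, without either control library (20 each), ICM 3 days replicate 2 (1) or ICM 6 days replicate 2 (3).

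The replicate numbers are not said to mark a shared culture or day. With the replicate number as a block, the replicate block fits called 113, 168, 51, 122 and 135 members in the 5 comparisons and changed 1 count by over 1.5 times, to 18 changed ratios from 3 to 6 days, where 9 were found without it. Each group had 2 libraries, and how small a change could be called at the depth of the antisense genes was not tested.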
